A study of Mus musculus with 8 samples.

Results

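The Hox genes of the mouse are transcription factor genes arranged in 4 clusters, and 38 of them were examined here for accessible chromatin in a beta cell line. They were taken by name, as the listed genes of HoxA (10 genes, chromosome 6), HoxB (10, chromosome 11), HoxC (9, chromosome 15) and HoxD (9, chromosome 2), out of 21887 protein-coding genes of the GRCm38.p6 gene table. All 38 were found in that table. The remaining family member is not analysed here. Accessibility was measured by ATAC-seq, in which a transposase cuts DNA that is free of nucleosomes, so that reads gather over open regions (peaks). The cells were MIN6, a mouse insulinoma line labelled as wild type, and carried for 48 hours either the pcDNA 3 empty vector or the plasmid pGloMyc-Klf4, which expresses the zinc finger factor Klf4. Each plasmid had 4 libraries, but the values analysed are 1 merged peak list per plasmid. There is thus no spread between replicates and no test between plasmids, and every difference below is a description of 2 lists. The plasmids differ in backbone as well as in Klf4, so the effects of these cannot be told apart. How many of the cells took up plasmid is not given in the sources used here.

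Hox genes encode homeodomain proteins that give cells their position along the body axis. The order of the genes in a cluster follows the order in which they are used: low-numbered genes (paralog groups 1 to 4) act in the hindbrain and neck, high-numbered genes (9 to 13) in the lumbar region, tail, limbs and urogenital tract. Outside their domains the clusters are held silent by Polycomb complexes, which mark them with methylated histone H3 and compact them, while trithorax complexes with menin keep them active. They are also unusually dense in CpG islands. Pdx1, the master regulator of the pancreas, belongs to the ParaHox genes, the sister group of the Hox genes.

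Over the 4 clusters, taken from the outermost listed genes with 5 kb on both sides (525 kb in all), there were 25 peaks with the empty vector and 90 with Klf4. Peaks covered 14398 bp (2.74%) and 74187 bp (14.1%) of the clusters in that order. The ratio of peak numbers was 3.6 (exact 95% binomial interval 2.29 to 5.85, which covers counting error only), against 1.28 over all chromosomes. The ratio of covered lengths was 5.15, against 1.28.

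All 4 clusters moved in the same direction. HoxA went from 6 to 21 peaks and from 2967 to 16052 bp covered. HoxB, the cluster with the most peaks before, went from 14 to 31 peaks and from 8675 to 24239 bp. HoxC, which had only 2 empty vector peaks, had 19 with Klf4, and its covered length went from 1415 to 16597 bp. HoxD went from 3 to 19 peaks and from 1341 to 17299 bp. The gains in covered length were close to each other, from 13085 bp in HoxA to 15958 bp in HoxD. The ratios of covered length were not, at 2.79 in HoxB, 5.41 in HoxA, 11.7 in HoxC and 12.9 in HoxD, because the starting lengths differed. With so few empty vector peaks the ratios of peak number are imprecise: 9.5 in HoxC with an exact interval of 2.29 to 84.1, and 2.21 in HoxB with 1.14 to 4.5.

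**Figure D1:**
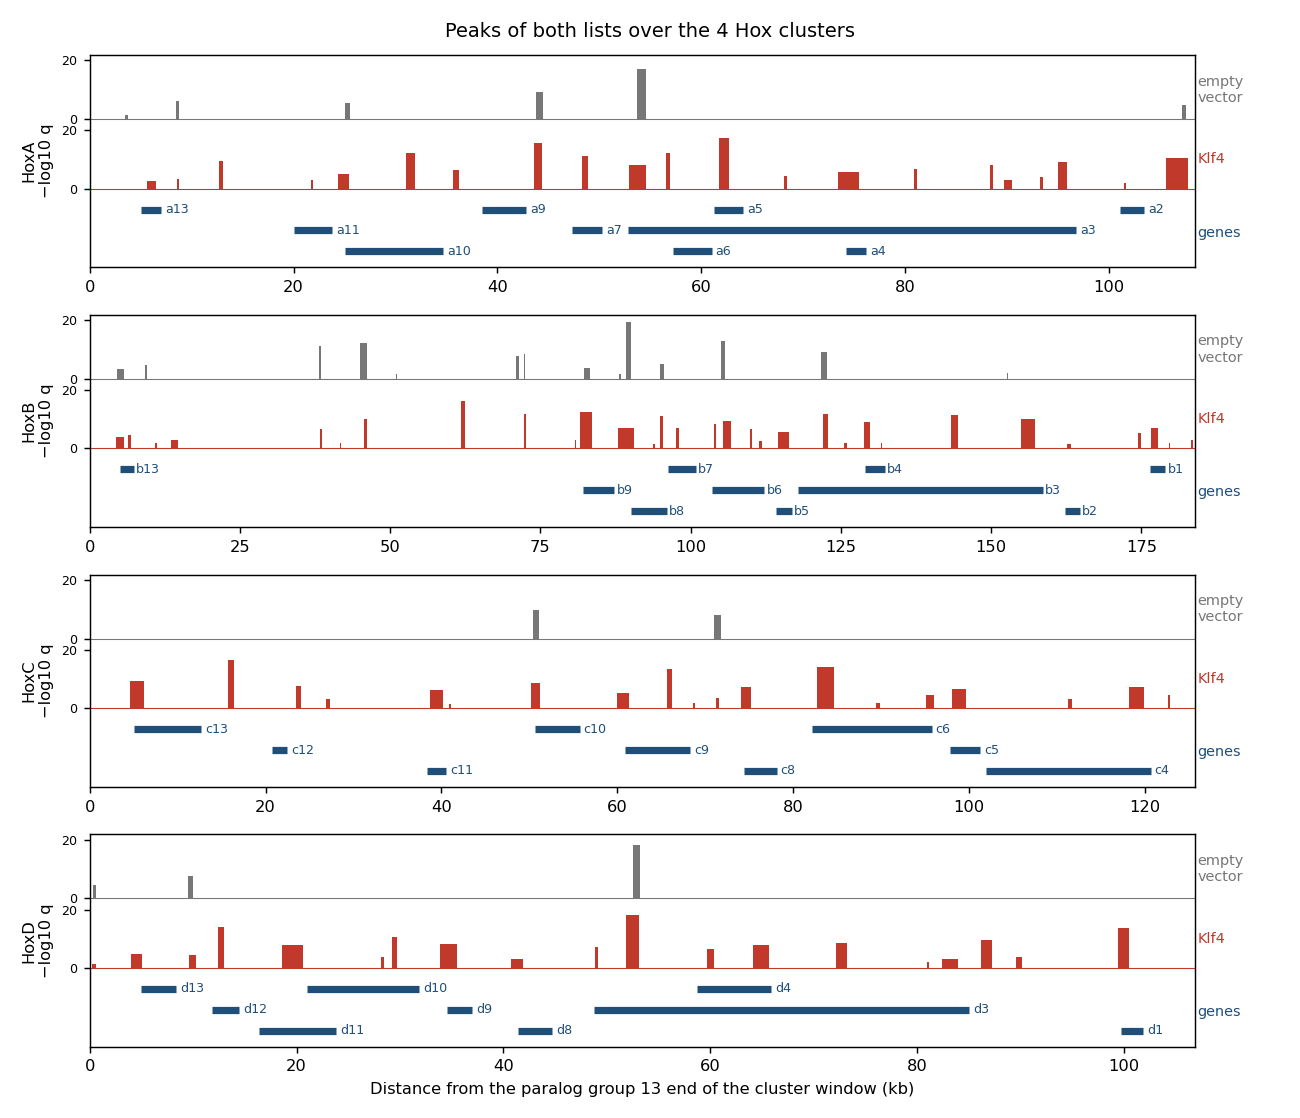
Peaks of the empty vector list (grey) and the Klf4 list (red) along each Hox cluster, drawn at their position and width, with height giving −log10 q within the list on a scale from 0 to 20. The x axis is the distance in kb from the paralog group 13 end of each cluster window and blue bars are the listed genes. Empty vector peaks number 6, 14, 2 and 3 from HoxA to HoxD, and Klf4 peaks 21, 31, 19 and 19, spread from one end of each cluster to the other.

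The gain ran past the cluster windows and was smaller farther out. In the stretches from 5 to 50 kb (a split made after seeing the data) beyond the outermost listed genes (360 kb in all), 6 peaks were called with the empty vector and 24 with Klf4, and they covered 3544 and 12394 bp. The ratio of peak numbers was 4, against 3.6 in the clusters, and that of covered lengths 3.5, against 5.15. By cluster the length ratio in these stretches was 2.07 beside HoxA, 2.7 beside HoxB and 8.01 beside HoxD, while beside HoxC there was no empty vector peak and 2489 bp with Klf4. The covered share was 0.984% and 3.44%. From there out to 1 Mb the ratios were 1.24 for peak number and 1.34 for covered length. Over the whole 1 Mb on both sides of the clusters 507 peaks were called with the empty vector and 643 with Klf4 (ratio 1.27). They covered 4.37% and 5.96% of the length (ratio 1.37). Around HoxD the flanks went from 68 to 75 peaks and from 50630 to 51927 bp, a length ratio of 1.03, while the cluster between them gained 15958 bp. Around HoxA the flanks had a length ratio of 1.23. HoxB and HoxC lie in flanks that themselves gained more, with ratios of 1.46 and 1.5. Among 11 genes that border the clusters, 2 had at least a 2-fold longer covered length with Klf4 (8.3% of all protein-coding genes did), and these were Evx1 and Evx2, the homeobox genes that sit beside the group 13 ends of HoxA and HoxD. Evx1 went from 0 to 2478 bp and Evx2 from 496 to 1781 bp. The other 9 had a change under 2-fold.

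**Figure D2:**
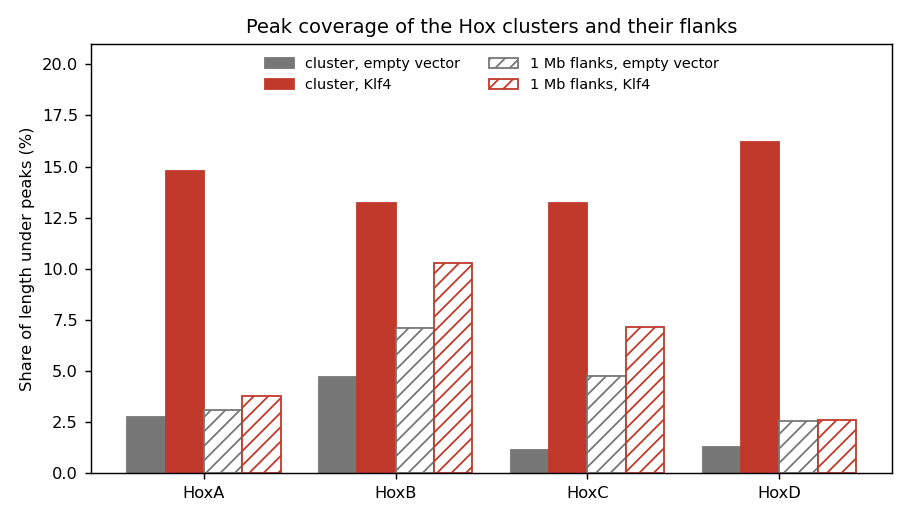
Share of length under peaks (%) in each Hox cluster (filled bars) and in the 1 Mb on both sides of it (hatched bars), with the empty vector in grey and Klf4 in red; each bar is 1 merged list. With Klf4 the clusters reach 13.2 to 16.2%, while their flanks range from 2.6 to 10.3%.

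Seen against the whole genome in tiles of 100 kb, the 9 tiles that hold Hox genes ranked from 76 to 1887 by covered length gained. The tile with Hoxb1 to Hoxb6 gained 9994 bp and ranked 76 of 20827 tiles with a peak in either list. The tile with Hoxd1, Hoxd3, Hoxd4, Hoxd8 and Hoxd9 gained 9895 bp and ranked 83. Both HoxC tiles ranked 107 and 124, the other HoxD tile 284 and the HoxA tiles 341 and 445. The tile with Hoxb6 to Hoxb9 gained 5440 bp and ranked 791, with 3.79% of tiles above it. The tile that holds Hoxb13 alone, which is set apart from the rest of its cluster, gained least, 3556 bp, and 9.06% of all tiles gained at least as much. Gains of this size were thus uncommon but not restricted to the Hox clusters, since the highest Hox tile ranked 76.

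The peaks in the clusters were of weak to middle strength in both lists. The fold enrichment (signal over the peak caller's local background) and −log10 q are the authors' values for each peak. No Hox peak of either list reached a −log10 q of 20, a level that 28.8% of all empty vector peaks and 21.8% of all Klf4 peaks passed. The median −log10 q was 7.78 for the 25 empty vector peaks (8.82 over that whole list) and 6.67 for the 90 Klf4 peaks (7.61 over that whole list). Klf4 peaks in the clusters were wide: 29 of 90 (32.2%) spanned at least 1 kb, against 18.9% of all Klf4 peaks. The p-values of peaks of equal fold were alike in the lists, with a median −log10 p of 6.3 and 6.5 at a fold of 3 to 4, and 10.5 and 10.3 at a fold of 4 to 5, with the empty vector and Klf4. The part that depth or signal to noise has in the longer Klf4 list was not tested.

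Most of the empty vector peaks were in the Klf4 list as well. Of 25, 20 were overlapped by a Klf4 peak (80%, exact interval 59.3 to 93.2%), close to the 81.2% over all chromosomes. Of the 90 Klf4 peaks, 19 were overlapped by an empty vector peak (21.1%, exact interval 13.2 to 31%), against 63.3% over all chromosomes. The remaining 71 were found with Klf4 alone. The median width of these 71 was 567 bp, where the 47185 such peaks of the whole list had 355 bp. Their median fold was 3.47 (3.29 in the whole list) and their median −log10 q 6.34 (4.75). At least 1 kb was spanned by 29.6% of them, against 7.28% of the whole. The 5 peaks of the clusters found with the empty vector alone had a median −log10 q of 1.89, from 1.32 to 7.96, and 4 of them lay in HoxB.

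The strongest empty vector peaks of the clusters were found in both lists. They lay at chr11:96278534-96279401 at the edge of Hoxb8 (−log10 q 19.2), at chr2:74715815-74716419 inside Hoxd3 (18.3), at chr6:52211344-52212190 inside Hoxa3, 877 bp from its start (17.2), at chr11:96294298-96295074 inside Hoxb6 (12.99) and at chr11:96234366-96235399, 35931 bp from Hoxb9 (12.3). The Hoxd3 peak was also the strongest Hox peak of the Klf4 list (chr2:74715060-74716317, −log10 q 18.3). Positions are those of the mm10 build named in the submitters' processing notes, counted from 1.

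Klf4-only peaks with a −log10 q of at least 10 numbered 13, or 18.3% of the 71 in the clusters, close to the 19.4% of all Klf4-only peaks. The strongest was chr6:52203187-52204118 inside Hoxa5 (fold 6.18, −log10 q 17.4). It was followed by chr15:102931854-102932585 between Hoxc12 and Hoxc13 (6.39, 16.6) and by chr11:96251030-96251824 in the gap between Hoxb9 and Hoxb13 (5.97, 16.1). These 3 and the overlapped peaks in Hoxd3 and beside Hoxa9 (−log10 q 15.5) were the 5 strongest Klf4 peaks of the clusters. HoxC held 2 more, in Hoxc6 (14.2) and in Hoxc9 (13.6). HoxD held 3, in Hoxd12 (13.96), at the start of Hoxd1 (13.7) and in Hoxd10 (10.6). HoxA had another 3, beside the Hoxa6 start (12.2), in Hoxa10 (12.1) and in Hoxa7 (11.1). In HoxB both others lay inside Hoxb3 (11.3 and 10.1). Every cluster therefore had a Klf4-only peak of this strength.

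For each gene the covered length was next taken over its body and 5 kb on both sides. With the empty vector 17 of the 38 Hox genes had no peak in this window, where 20.6% of all protein-coding genes had none. With Klf4 all 38 had at least 1 peak, where 3877 of the 21887 protein-coding genes had none. All 17 Hox genes without an empty vector peak thus had a Klf4 peak, against 17.9% of the protein-coding genes without one. The covered length ranged from 0 to 2170 bp with the empty vector (median 412 bp) and from 661 to 8852 bp with Klf4 (median 2382 bp). It was longer with Klf4 in 38 of 38 Hox genes, where 58.6% of all protein-coding genes were longer. The windows of neighbours overlap, so these genes are not independent: 41 of the 90 Klf4 peaks lay in the windows of at least 2 listed genes, and the gene models of Hoxa3, Hoxb3, Hoxd3 and Hoxc4 are long and reach over or up to their neighbours.

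Differences were expressed as the log2 ratio of covered lengths, Klf4 over empty vector, with 500 bp added to both. This added length sets the size of the ratio where the empty vector value is 0, so such ratios are neither folds nor bounds. The median over the 38 genes was 1.94, against 0.08 over all protein-coding genes. At least 2-fold longer (log2 ratio of 1 or more) were 28 of 38 Hox genes, against 8.3% of all protein-coding genes. None was at least 2-fold shorter, against 0.219%. Among the protein-coding genes whose empty vector coverage was no higher than that of the highest Hox gene, 11% were at least 2-fold longer. Without any added length, the 21 Hox genes that had an empty vector peak had a median ratio of 3.39, from 1.35 at Hoxb13 to 24.8 at Hoxb5. The median over all such protein-coding genes was 1.14. The Hoxb5 value depends on the window edge. Its 104 bp with the empty vector are the end of a 1022 bp peak, and the Klf4 peak that overlaps it starts beyond the window.

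**Figure D3:**
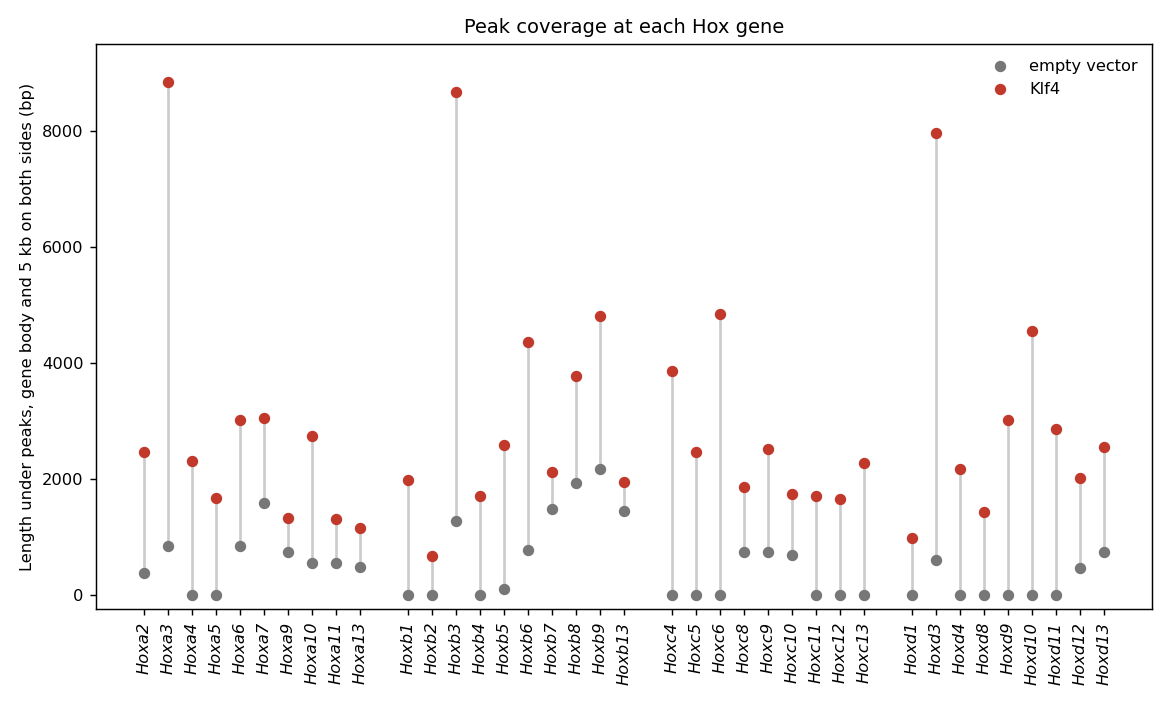
Length under peaks (bp) in the body and 5 kb on both sides of each of the 38 Hox genes, ordered by cluster and paralog group, with the empty vector in grey and Klf4 in red, 1 value per list. Every red point lies above its grey point, and 17 grey points lie at 0.

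The anterior genes (paralog groups 1 to 4) had the highest median log2 ratio, 2.38 over 11 genes, and all 11 were at least 2-fold longer. HoxD did not follow this order, with a median of 2.41 over its 3 anterior genes and 2.75 over its 5 posterior ones. No empty vector peak was found at 7 of the 11 anterior genes, 4 of 11 central ones (groups 5 to 8) and 6 of 16 posterior ones. At such genes the added length sets the ratio. The median covered length with Klf4 was 2311 bp in the anterior, 2576 bp in the central and 2143.5 bp in the posterior genes. In HoxA, Hoxa2, which patterns the hindbrain and middle ear, went from 366 bp (empty vector) to 2462 bp (Klf4). Most of the latter was 1 peak of 2182 bp that lies 2150 bp from the gene. The body of Hoxa2 held 280 bp, in a weak peak (−log10 q 2.05). Hoxa3, needed for thymus and parathyroid, went from 1 peak and 847 bp to 12 peaks and 8852 bp, the longest covered length of the 38 genes. Hoxa4 had no peak and then 2311 bp, most of it a single Klf4-only peak of 2049 bp that covers 65.9% of the gene. In HoxB, Hoxb1, the gene of the fourth hindbrain segment, went from 0 to 1974 bp over 4 peaks. Hoxb2 went from 0 to 661 bp, the shortest covered length with Klf4 among the 38 genes. This was a single weak peak with a −log10 q of 1.61. Hoxb3 went from 1269 to 8674 bp. Hoxb4, known for its effect on blood stem cells, went from 0 to 1694 bp. Of the anterior genes of HoxC and HoxD only Hoxd3 had an empty vector peak. Hoxc4 went from 0 to 3863 bp, Hoxd1 from 0 to 972 bp in 1 peak, and Hoxd4 from 0 to 2165 bp. Hoxd3, which shapes the first neck vertebrae, went from 1 peak and 605 bp to 9 peaks and 7968 bp.

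The central genes (groups 5 to 8) had a median log2 ratio of 1.93, with 7 of 11 at least 2-fold longer. Hoxa5, a gene of lung and neck development, went from no peak to 3 peaks and 1672 bp. Hoxa6 went from 847 to 3012 bp, although its own body held no peak in either list. Hoxb5 went from 104 to 2576 bp, and Klf4 peaks covered 73.6% of its body, the highest share of the 38 genes. Hoxb6 went from 777 to 4358 bp. Hoxc5 went from 0 to 2453 bp. Hoxc6, a thoracic gene, went from no peak to 4 peaks and 4840 bp, and its log2 ratio of 3.42 was the highest of the 38 genes. Hoxd8 went from 0 to 1422 bp. The 4 genes under the 2-fold line all had an empty vector peak in their window. Hoxa7 had 1577 and 3054 bp, Hoxb7 1480 and 2108 bp, Hoxb8 1920 and 3780 bp, and Hoxc8 739 and 1850 bp, in the order empty vector and Klf4.

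The posterior genes (groups 9 to 13) had the lowest median log2 ratio, 1.35, with 10 of 16 at least 2-fold longer. They were split by cluster. In HoxA and HoxB just 1 of 6 passed the line, Hoxa10, a gene of uterus and limb, with 549 and 2739 bp. Hoxa9, a blood progenitor gene, had 730 and 1325 bp, Hoxa11 549 and 1310 bp, and Hoxa13, a gene of digits and genital tract, 475 and 1157 bp. Hoxb9 had the highest empty vector value of the 38 genes, 2170 bp, against 4803 bp in the Klf4 list, just under the line with a log2 ratio of 0.99. Hoxb13, the prostate gene, had the smallest log2 ratio of the 38, 0.33, with 1436 and 1937 bp.

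In HoxC and HoxD 9 of 10 posterior genes passed the line. Hoxc11 went from 0 to 1705 bp, Hoxc12 from 0 to 1652 bp and Hoxc13, the hair and nail gene, from 0 to 2269 bp. Hoxc9 had 739 and 2504 bp. Hoxc10, with 676 and 1740 bp, had a log2 ratio of 0.93 and did not pass. All 5 in HoxD passed. Hoxd9 went from 0 to 3009 bp, Hoxd10, a limb and motor neuron gene, from 0 to 4545 bp and Hoxd11, a forearm gene, from 0 to 2862 bp. Hoxd12 had 458 and 2018 bp, and Hoxd13, the gene of digit number and shape, 736 and 2541 bp. The genes just inside the line were Hoxb2 (log2 ratio 1.22) and Hoxc9 (1.28), and those just outside were Hoxb9 and Hoxc10.

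Most of the Klf4 peak length lay on the genes. Bodies of the 38 genes take up 52.1% of the cluster windows, and held 69.4% of the peak length with Klf4 and 47.7% with the empty vector. By cluster the Klf4 share ran from 67.9% in HoxB, where bodies are 40.9% of the window, to 70.8% in HoxD, where they are 61.6%. Outside the bodies peaks covered 7535 bp with the empty vector but 22678 bp in the Klf4 list. In the HoxB gap, outside every gene window, there were 5 empty vector peaks (2320 bp) and 6 Klf4 peaks (3251 bp), the latter with the strong Klf4-only peak described above. Inside gene windows of the 4 clusters the numbers were 20 and 83, with 12078 and 70537 bp.

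Start sites were examined where RefSeq promoter sequences of GRCm38.p6 were given, which was the case for 24 promoters of 22 Hox genes. HoxA and HoxD have 10 promoters each, HoxB has 3 and HoxC 1, so the values below are mostly those of HoxA and HoxD. With the empty vector 2 of the 24 start sites lay within 1 kb of a peak (8.33%), against 53.1% of the 32851 promoters of the whole table. With Klf4 20 of 24 did (83.3%), against 60.4%. With the empty vector 1 start site, that of the longer Hoxa10 model, lay inside a peak (4.17%, against 44.3% of all promoters). With Klf4 8 of 24 did (33.3%, against 49.7%), so that more Hox start sites lay beside a Klf4 peak than under one. The median distance from a Hox start site to the nearest empty vector peak was 5468 bp and to the nearest Klf4 peak 198 bp, where the medians over all promoters were 518 and 12 bp.

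The 300-base promoters (250 bases before and 50 after the start) of the Hox genes held a median of 14.5 CG dinucleotides, against 7 over all promoters. CG-rich promoters without an empty vector peak were often under a Klf4 peak in the genome as a whole. Of all promoters without an empty vector peak 13.2% were touched by a Klf4 peak, and of those with at least as many CG dinucleotides as the Hox median 58.7% were. Among the Hox promoters without an empty vector peak, 9 of 23 were touched by a Klf4 peak, and in the same CG range 6 of 12. At the promoter itself the Hox genes were therefore close to the background of equally CG-rich promoters. Over the whole gene window the share was above it. Of protein-coding genes with such promoters and with empty vector coverage no higher than the highest Hox gene, 45.4% were at least 2-fold longer. Of the 11 Hox genes among them, all of HoxA or HoxD, 9 were, with a median log2 ratio of 2.12 against 0.90. Genes were matched on their own promoter only, and Hox windows overlap those of their neighbours. The Hox genes are thus not independent, and the difference was not tested.

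**Figure D4:**
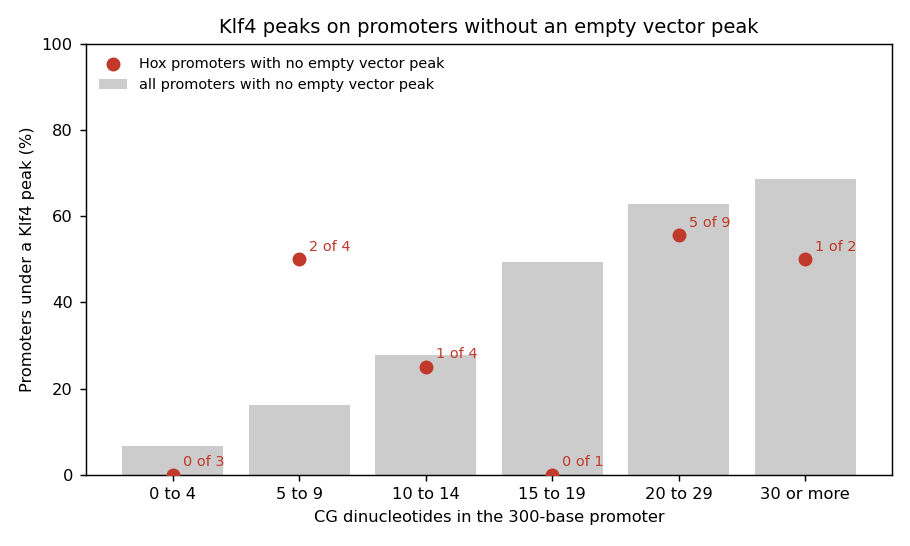
Share of promoters (%) under a Klf4 peak among promoters with no empty vector peak, by the number of CG dinucleotides in 300 bases; bars are all promoters of the table and red points the Hox promoters, with their counts. The bars rise from 6.71% to 68.7%, and the points for 20 to 29 dinucleotides (5 of 9) and for 30 or more (1 of 2) lie below theirs, while that for 5 to 9 (2 of 4) lies above its bar of 16.3%.

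The letters CACCC, the core of the sites that Klf4 is known to bind, were searched on both strands. They occurred in 16 of 24 Hox promoters (66.7%) and in 57.5% of all promoters. The longer form CCNCACCC, which contains the former, was in 7 of 24 (29.2%) and in 16.6%. Both shares vary with CG count. Over all promoters CACCC ran from 48.1% at 0 to 4 CG dinucleotides to 66.7% at 20 to 29, and CCNCACCC from 11.5% to 22.6%. TATAAA, the core of the TATA box, was in 4 of 24 (16.7%) and in 13.6%. Over the whole table CACCC was in 78.5% of the 2326 promoters touched by Klf4 peaks alone and in 48% of the 15236 with no peak. The Hox promoters did not follow that order, with 5 of 9 and 10 of 14. These matches are letters in a window and not sites.

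The bases before the start of 4 Hox genes show this range. Each is given 5′ to 3′ on the gene's strand, from RefSeq, GRCm38.p6, with CACCC or its reverse complement GGGTG in capitals. Hoxd13 (chr2:74667975-74668224, plus strand) and Hoxd9 (chr2:74697513-74697762, plus strand) hold 1 match each and lie wholly under a Klf4-only peak. Hoxd1 (chr2:74762730-74762979, plus strand) lies wholly under a Klf4-only peak and holds none. Hoxa13 (chr6:52260881-52261130, minus strand) holds 4 matches and 35 CG dinucleotides and lies under no peak of either list.
Hoxd13: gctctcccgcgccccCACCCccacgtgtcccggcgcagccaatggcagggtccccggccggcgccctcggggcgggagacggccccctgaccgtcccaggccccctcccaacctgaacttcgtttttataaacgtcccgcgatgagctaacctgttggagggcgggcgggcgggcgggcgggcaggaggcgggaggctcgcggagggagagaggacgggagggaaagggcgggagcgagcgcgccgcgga
Hoxd9: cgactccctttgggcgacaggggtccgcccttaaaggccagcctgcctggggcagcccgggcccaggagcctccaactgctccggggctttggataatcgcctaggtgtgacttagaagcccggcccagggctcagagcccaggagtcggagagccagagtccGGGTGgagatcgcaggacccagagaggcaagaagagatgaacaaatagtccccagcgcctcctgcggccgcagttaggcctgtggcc
Hoxd1: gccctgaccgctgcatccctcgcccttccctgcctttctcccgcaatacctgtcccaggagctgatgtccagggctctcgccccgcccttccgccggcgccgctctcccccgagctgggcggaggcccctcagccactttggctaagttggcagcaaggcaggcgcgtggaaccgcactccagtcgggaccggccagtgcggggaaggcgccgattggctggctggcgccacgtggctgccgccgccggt
Hoxa13: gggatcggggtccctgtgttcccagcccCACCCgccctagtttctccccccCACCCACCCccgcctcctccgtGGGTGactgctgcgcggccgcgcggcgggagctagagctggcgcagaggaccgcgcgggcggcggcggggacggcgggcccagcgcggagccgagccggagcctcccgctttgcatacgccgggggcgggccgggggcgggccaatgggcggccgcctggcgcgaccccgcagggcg

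Noncoding genes embedded in the clusters went the same way as their neighbours, whose windows they share. Of 10 listed, 8 were at least 2-fold longer with Klf4 and none was 2-fold shorter, against 10.3% and 0.91% of all miRNA and lncRNA genes of the table. Their median log2 ratio was 1.85. Hotair, the RNA transcribed between Hoxc11 and Hoxc12, went from 0 to 920 bp. The exceptions were Hottip, at the group 13 end of HoxA, with 981 and 1411 bp, and Mir196a-1, which lies in the HoxB gap, with 698 and 622 bp.

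The clusters encode the miR-10 and miR-196 families and miR-615, small RNAs of which several target Hox messages. Hairpins of 2 of them lay wholly under Klf4-only peaks: Mir196b, between Hoxa9 and Hoxa10, under chr6:52229682-52230283 (−log10 q 6.42), and Mir615, inside Hoxc5, under chr15:103014260-103015790 (6.72). No hairpin of these genes lay under an empty vector peak. From Mir10a the nearest empty vector peak was 5158 bp away and the nearest Klf4 peak 934 bp, and from Mir10b 9666 and 1304 bp, measured from the middle of the 5p arm. The mature RNAs are given from RefSeq with the seed (bases 2 to 8) in capitals. miR-10a and miR-10b share the seed ACCCUGU, and miR-196a, which both Mir196a-1 and Mir196a-2 encode, shares AGGUAGU with miR-196b.
mmu-miR-10a-5p: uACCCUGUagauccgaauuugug
mmu-miR-10b-5p: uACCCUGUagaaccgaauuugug
mmu-miR-196a-5p: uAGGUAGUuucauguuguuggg
mmu-miR-196b-5p: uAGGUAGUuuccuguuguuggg
mmu-miR-615-3p: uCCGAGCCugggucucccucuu

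Genes that work with or upon the Hox genes were compared over the same windows. The lists were described by counts and medians only. Among 9 TALE cofactor genes, whose proteins bind DNA together with Hox proteins, 1 was at least 2-fold longer (against 8.3% of all protein-coding genes), Pbx4, which went from 1876 to 6445 bp, and the median log2 ratio was 0.09. Among 15 Polycomb genes none was at least 2-fold longer or shorter, and the median was 0.01. The methyltransferase gene Ezh2 had 2247 and 1531 bp, and its partners Eed 1804 and 1486 bp and Suz12 1789 and 1512 bp. Among 8 trithorax and menin genes none passed in either direction, with a median of 0.04. Men1, the menin gene, had 2318 and 3471 bp, and Kmt2a 7383 and 8455 bp. Kmt2b came nearest to the line, with 2227 and 4566 bp and a log2 ratio of 0.89 with the added length. Every gene of these 3 lists had a peak with both plasmids.

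The 6 ParaHox genes were uneven. Pdx1 had 3 peaks in both lists and 5288 and 5581 bp, and Cdx2 had 2387 and 2512 bp. Cdx1, a direct activator of Hox genes in the embryo, went from 471 to 5220 bp, and Gsx2 from 449 to 1556 bp. Both passed the 2-fold line, as did 8.3% of all protein-coding genes, and the median of the list was 0.07.

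Among 31 genes of other homeobox families (among them Dlx, Lhx, En, Msx, Emx, Otx and Gbx), 11 were at least 2-fold longer with Klf4 and none 2-fold shorter, against 8.3% and 0.219% of all protein-coding genes. Their median log2 ratio was 0.77, between that of all protein-coding genes (0.08) and that of the Hox genes (1.94). The farthest were Gbx2, from 0 to 1526 bp, En2, from 0 to 1372 bp, Msx2, from 386 to 2418 bp, and Emx1, from 928 to 3985 bp. Longer coverage with Klf4 was thus also found at other homeobox genes, and no test was made of the difference between them and the Hox genes.

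**Figure D5:**
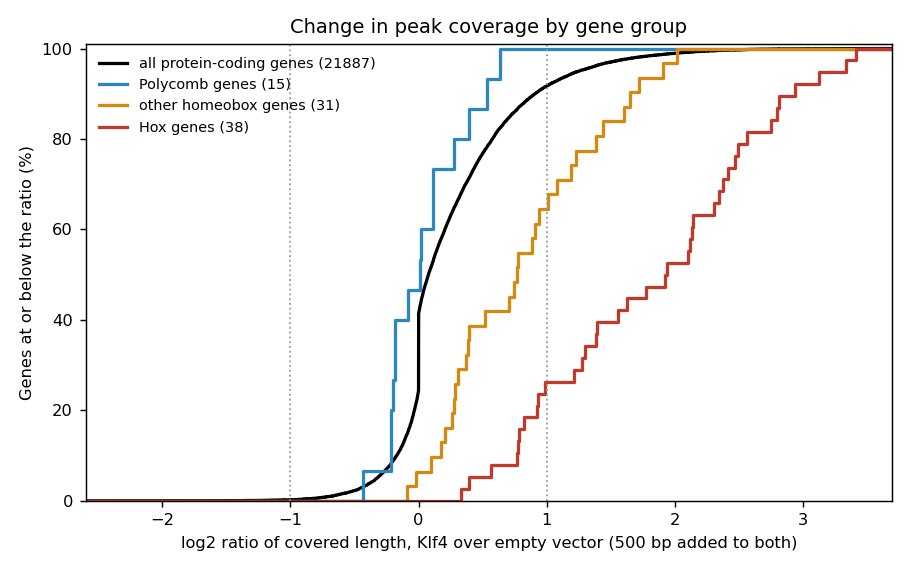
Cumulative share of genes (%) at or below each log2 ratio of covered length, Klf4 over empty vector with 500 bp added to both, for the 38 Hox genes, 31 other homeobox genes, 15 Polycomb genes and all 21887 protein-coding genes. Dotted lines mark 2-fold. The Hox curve lies to the right of the others, with medians of 1.94, 0.77, 0.01 and 0.08 in that order.

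The label of the cells was checked on the same windows. All 8 beta cell markers had peaks in both lists, with log2 ratios from −0.07 at Nkx6-1 to 0.40 at Ins1. Of 8 markers of other pancreatic, vascular, blood and stromal cells, Cpa1 and Prss1 had no peak in either list, and Krt19, a duct marker, and Cd3e, a T cell marker, were at least 2-fold longer with Klf4 (8.3% of all protein-coding genes were), from 533 to 3450 bp and from 0 to 717 bp. Summed over these 8 the covered length went from 9271 to 16548 bp. The acinar gene Cela1 had 4 peaks in both lists (2239 and 2521 bp). Pecam1 had 7 peaks with the empty vector and 8 with Klf4 (3334 and 6334 bp), and Col1a1 7 and 6 (2600 and 3093 bp). Ptprc went the other way, from 565 to 433 bp. Of 3 delta and PP cell markers Sst had no peak in either list, while Hhex had 863 and 1704 bp and Ppy 1717 and 1893 bp. Their part in the Hox result was not tested.

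Because the Klf4 list is longer, the counts were repeated with lists of equal length, a choice made after seeing the data. With the Klf4 list limited to as many peaks as the empty vector list, by −log10 p, the clusters held 25 and 65 peaks, a ratio of 2.6, and 26 of 38 genes were at least 2-fold longer, against 5.8% of all protein-coding genes. Hoxa13 and Hoxb2 then had no Klf4 peak. With peaks of −log10 q of at least 5 in both lists, 24 genes passed, against 8.18%, and at 10 or more 14 passed, against 6.19%. At both limits 1 Hox gene was at least 2-fold shorter, where 0.48% and 0.955% of all protein-coding genes were. Over gene bodies alone 26 Hox genes were at least 2-fold longer, against 8.88%, and with 10 kb on both sides 32, against 8.51%. At 20 or more the clusters hold no peak of either list and nothing could be compared.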

How the data were processed

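ATAC-seq peaks of MIN6 cells were analysed from 2 lists in broadPeak format, 1 merged list for each plasmid. Per the submitters' processing notes, Bowtie2, MACS2 and DiffBind were used with build mm10. Versions, read filters, the caller's options and whether libraries were merged before or after calling are not given in the sources used here. The values deposited with each peak are its fold enrichment (a ratio to local background), −log10 of p and of q, and a display score that repeats the latter and was not used. Read depth is unknown from these lists. The differential analysis is not used here.

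Peaks on chromosomes 1 to 19, X and Y were kept (100099 and 128538). Gene positions came from the GRCm38.p6 table, the same build. Covered length was the number of bp of a window under peaks, and peaks were shared where they overlapped by at least 1 bp. The Hox genes and the gene lists were chosen with earlier results of these data known, so no gene list is independent evidence. Named were all Hox genes at least 2-fold changed, the 3 longest per cluster, the 5 strongest cluster peaks per list, Klf4-only peaks with a −log10 q of at least 10, and up to 4 changed genes per list; further named genes were chosen after their values were seen. Intervals are exact (Clopper-Pearson) and cover counting error only. The coverage step was tested on simulated data. Computation used Python 3.11.15 with matplotlib 3.10.9, scipy 1.17.1, pandas 2.3.3 and numpy 2.4.6.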

Additional observations from a re-analysis of the deposited data

How the results depend on the processing

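No paired analysis was possible because each plasmid has 1 merged list, which also means that no replicate could be left out. The peak number ratio and the shares count as moved when they leave the 95% interval of the reported value, and all other values, the covered length ratio included, when they change by more than 1.5 times. Of 40 values under alternatives, 6 come from 2 settings that leave no Hox peak in either list, so that their outcome is fixed. Of the other 34, 27 stayed within these limits and 7 moved, and no ratio or median changed direction. The peak number ratio ranged from 2.6 to 3.68 and the covered length ratio from 4.33 to 5.68. With gene bodies alone 26 genes were at least 2-fold longer (8.88% of all protein-coding genes), and with 10 kb on both sides 32 (8.51%). With 100 bp added in place of 500 the median log2 ratio was 3.08, since the added length sets the ratio where the empty vector length is 0. At a −log10 q of at least 5, 1 gene, Hoxa11, was 2-fold shorter (0.48% of all protein-coding genes were), from 549 to 0 bp. Both Klf4 peaks in its window fell below the limit, at 4.95 and 2.89. At 10 or more, a limit added after seeing the data, 14 genes were longer and 1, Hoxb6, shorter (0.955% of all protein-coding genes), the median was 0.48, and 33.3% of empty vector and 9.52% of Klf4 peaks were overlapped. At 20 or more, and with the 20000 strongest peaks of each list, the clusters hold no peak, so 0 genes were longer, the median was 0 and the ratios gave no value. The Hox result rests on peaks of low to middle strength in lists of unknown read depth.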
